A study of Homo sapiens with 4 samples.

Results

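The transcripts described here encode 10 enzymes that make or use asparagine, aspartate and arginine or run the urea cycle: ASNS, GOT1, ASS1, ASL, ARG1, ARG2, CPS1, OTC, NAGS and AGMAT. They were chosen by name, and 10 of 10 were found among the 56303 features of the count table. A feature was compared where 2 or more of the 4 libraries held 10 counts or more, which all 10 enzymes and 19210 features did. The cells were Huh7, an established human hepatocellular carcinoma line. RNA bound by the splicing factor RBM39 was recovered by immunoprecipitation from cell lysates and sequenced. The libraries were the immunoprecipitate (IP) and the input RNA of cells labelled shRBM39, which received a plasmid with a hairpin directed at RBM39, and the IP and input RNA of cells labelled shControl, which carried a control hairpin. Each of these 4 groups had 1 library, and none was an IP with a control antibody, so RNA held by RBM39 and RNA held by the beads or the antibody cannot be told apart.

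In the liver, the urea cycle turns ammonia into urea. CPS1, switched on by the product of NAGS, and OTC work in mitochondria, ASS1 and ASL then make arginine in the cytosol from citrulline and aspartate, and ARG1 splits arginine into urea and ornithine. ASNS, outside the cycle, turns aspartate into asparagine with glutamine as the nitrogen donor, and GOT1 supplies aspartate in the cytosol. Liver cancers often change the balance of these enzymes, and RBM39 has been reported to bind arginine and to support ASNS expression in liver cancer cells, which is the reason for setting these transcripts together. On GRCh38.p14, RefSeq places ASNS at chr7:97851677-97928441, GOT1 at chr10:99396870-99430624, ASS1 at chr9:130444707-130501274, ASL at chr7:66075819-66093576 and ARG1 at chr6:131573226-131584329. It places ARG2 at chr14:67619920-67651708, CPS1 at chr2:210477685-210679107, OTC at chrX:38327684-38422928, NAGS at chr17:44004622-44009068 and AGMAT at chr1:15571699-15585051. Counts are per gene, with no split by exon or transcript.

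Total counts were 45812488 in the shRBM39 IP, 22249581 in the shRBM39 input, 41387762 in the shControl IP and 20858382 in the shControl input. Levels are given as CPM (counts scaled by library size) after TMM scaling, a scaling that sets the bulk of features equal between libraries. RBM39, the hairpin's target, stood at 2219 and 370 CPM in the IP and input labelled shRBM39, against 1035 and 403 CPM in the shControl IP and input. Its input level in the cells labelled shRBM39 was 0.917 times that of shControl (log2 -0.13, -0.17 to -0.08), so the labelled knockdown is barely visible in RNA and every direction below refers to the libraries as labelled. The hepatocyte markers, among them ALB and AFP, had 10 of 10 genes detected in every library. Of 15 markers of other cell types, DCN, HBB and HBA1 were at 0 counts in the 4 libraries, and the list summed to 175 and 301 CPM in the IP and input labelled shRBM39, against 300.3 and 420 CPM in the shControl IP and input. LYZ, a lysozyme gene, gave most of that sum, with 6600 and 5947 counts in the IP and input labelled shRBM39 and 12830 and 8540 counts in the shControl IP and input.

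With 1 library per group, a ratio between 2 libraries cannot be set against a spread between replicates. The ranges in brackets are 95% intervals that cover counting error alone, so such ratios carry no p-value. Calls of higher or lower needed a ratio of 2-fold or more and an interval without equality. In RNA from a whole culture, a lower level per cell and fewer cells with the transcript cannot be told apart. No transcript lengths were used, so levels are compared between libraries for the same gene and not between genes.

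The recovery of each transcript over input was examined first, as it asks which of these mRNAs made up a larger share of the immunoprecipitated RNA than of the lysate RNA. All 10 log2 ratios were above 0 in each culture, where 51.5% of all features were above 0 in the cells labelled shRBM39 and 49.7% in shControl cells. In the cells labelled shRBM39 the 10 ratios lay between 0.09 and 0.97 with a median of 0.49, beside a median of 0.02 for all features. In shControl cells they lay between 0.05 and 1.46 with a median of 0.76, beside -0.01 for all features. The medians of the 11822 protein-coding features with at least 200 counts over the 4 libraries were 0.08 in the cells labelled shRBM39 and 0.10 in shControl cells. None of the 10 was called higher and none lower in the cells labelled shRBM39, where 5.29% of all features were called higher and 9.00% lower. In shControl cells 4 of the 10 were called higher (ASL, OTC, NAGS and GOT1) and none lower, where 7.70% of all features were called higher and 11.3% lower. With libraries scaled to total counts, 718 features were called higher and 2164 lower in the cells labelled shRBM39, in place of 1016 and 1729, and 1876 higher and 1862 lower in shControl cells, in place of 1479 and 2173.

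**Figure D1:**
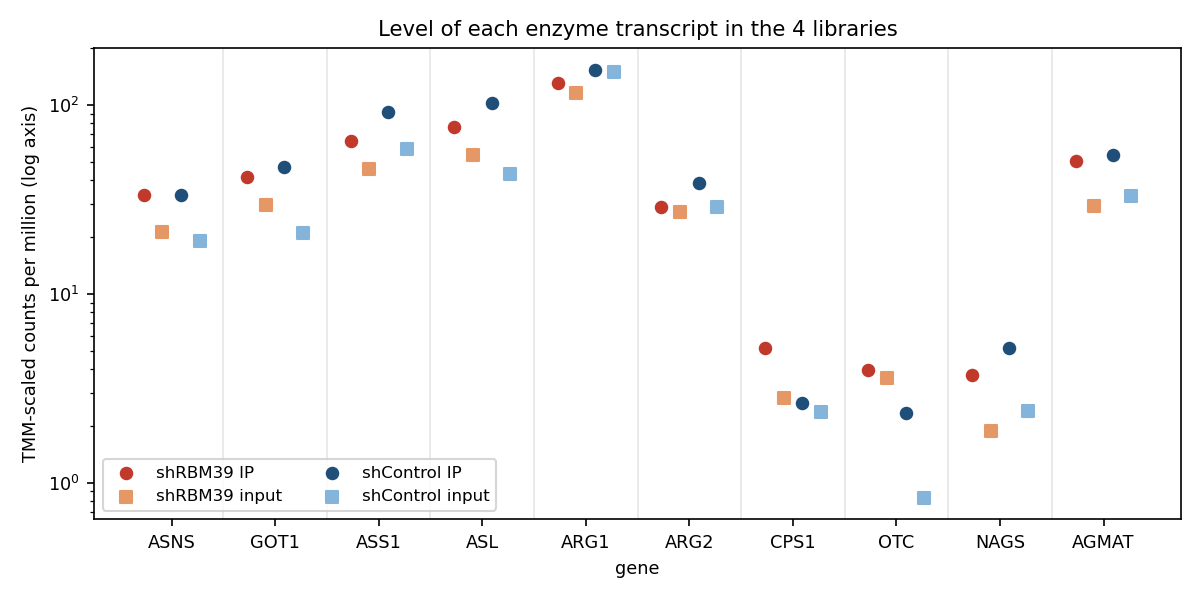
TMM-scaled CPM (log axis) of the 10 enzyme transcripts, with 1 point per library: shRBM39 IP, shRBM39 input, shControl IP and shControl input from left to right. The IP point stands above the input point of the same culture for all 10 genes, by the least for ARG1 in shControl cells (154 against 149 CPM), and the lowest point is OTC in the shControl input (0.834 CPM).

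ASNS, asparagine synthetase, was recovered above input in both cultures. It stood at 33.2 CPM in the IP labelled shRBM39 and 21.3 CPM in its input, against 33.6 CPM in the shControl IP and 19.1 CPM in the shControl input. The IP levels of both cultures were nearly the same, and each lay above both inputs. IP over input was 1.56 times in the cells labelled shRBM39 (log2 0.64, 0.49 to 0.80) and 1.75 times in shControl cells (log2 0.81, 0.65 to 0.97). These ratios were higher than those of 84.5% of the 11822 coding features in the cells labelled shRBM39 and 85.9% in shControl cells, so ASNS lay in the upper part of the distribution and below the 2-fold line in each culture. The reads of ASNS may be shared with its pseudogenes: ASNSP1 had 24 and 15 counts in the IP and input labelled shRBM39 and 47 and 42 counts in the shControl IP and input. With the pseudogene counts added, the log2 ratios were 0.62 in the cells labelled shRBM39 and 0.71 in shControl cells.

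The DNA before the start of ASNS is printed because ASNS is known for a short element there, bound by ATF4 when amino acids run low. That of GOT1 is printed because a match to the same pattern, though not the same letters throughout, was found in it. The windows are the 250 bases before a RefSeq start on GRCh38.p14, written 5′ to 3′ along the gene's strand, with matches to TGATGNAAN on either strand in capitals. ASNS is on the minus strand (chr7:97872409-97872658) and its match lies at -68 to -60, counted from the start. Another ASNS window (chr7:97872166-97872415), not printed, held no match. GOT1 is on the minus strand too (chr10:99430625-99430874) and its match, on the opposite strand, lies at -199 to -191. OTC is on the plus strand (chrX:38352354-38352603), is shown as the gene with the largest difference between the inputs, and holds no match. The printed windows of ASNS and OTC lie within the gene spans given above, so the starts they precede are not the outermost ones.
ASNS: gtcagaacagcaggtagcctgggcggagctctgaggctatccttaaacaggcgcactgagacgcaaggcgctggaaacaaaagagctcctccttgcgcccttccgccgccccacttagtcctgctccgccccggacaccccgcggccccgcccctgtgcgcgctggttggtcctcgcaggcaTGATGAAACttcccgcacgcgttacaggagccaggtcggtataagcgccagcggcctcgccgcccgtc
GOT1: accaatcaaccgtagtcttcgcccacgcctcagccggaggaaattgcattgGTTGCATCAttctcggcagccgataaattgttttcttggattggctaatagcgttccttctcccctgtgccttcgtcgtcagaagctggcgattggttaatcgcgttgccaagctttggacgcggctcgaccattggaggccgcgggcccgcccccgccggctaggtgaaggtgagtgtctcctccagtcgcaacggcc
OTC: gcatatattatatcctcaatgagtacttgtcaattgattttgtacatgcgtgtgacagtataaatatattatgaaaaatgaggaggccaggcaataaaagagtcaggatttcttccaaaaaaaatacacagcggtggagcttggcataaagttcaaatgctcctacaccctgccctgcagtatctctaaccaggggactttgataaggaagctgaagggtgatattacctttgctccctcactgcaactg
Of the 14 windows held for the 10 genes, 2 had a match, those printed for ASNS and GOT1, and 3.13% of all 35116 windows did. The pattern was looked for because ASNS is known to carry such an element. Its match was therefore not an open outcome, and the 2 figures do not measure enrichment. A match describes the letters in the window and does not show binding.

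GOT1, the cytosolic aspartate aminotransferase, was at 41.6 CPM in the IP labelled shRBM39 and 29.7 CPM in its input, against 47.2 CPM in the shControl IP and 21.0 CPM in the shControl input. Its ratio was 1.40 times in the cells labelled shRBM39 (log2 0.49, 0.36 to 0.62) and 2.24 times in shControl cells (log2 1.17, 1.02 to 1.31). The mitochondrial form, GOT2, which is not one of the 10, had log2 ratios of 0.45 in the cells labelled shRBM39 and 1.17 in shControl cells. The order was thus the same for both forms of the enzyme, with the shControl ratio the larger.

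ASS1, argininosuccinate synthase, stood at 64.3 and 45.7 CPM in the IP and input labelled shRBM39, against 91.9 and 58.4 CPM in the shControl IP and input. Both shRBM39 levels were below the shControl level of the same fraction. IP over input was 1.41 times in the cells labelled shRBM39 (log2 0.49, 0.39 to 0.60) and 1.58 times in shControl cells (log2 0.66, 0.56 to 0.75). ASS1 has many processed copies in the genome, but the 10 features named as its pseudogenes held no more than 1.10% of its counts in any library.

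ASL, argininosuccinate lyase, which releases arginine, had 76.4 and 54.6 CPM in the IP and input labelled shRBM39, against 102 and 43.2 CPM in the shControl IP and input. The input was the higher one in the cells labelled shRBM39 and the IP was the higher one in shControl cells, so both fractions moved the ratios apart. They were 1.40 times in the cells labelled shRBM39 (log2 0.49, 0.39 to 0.58) and 2.37 times in shControl cells (log2 1.24, 1.14 to 1.35).

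Of the arginases, which split arginine, ARG2 had the lowest ratio of the set in the cells labelled shRBM39 and ARG1 the lowest in shControl cells. Low ratios were not shared by both in each culture: ARG2 in shControl cells was above 68.6% of the 11822 coding features. ARG1, the liver form in the cytosol, was at 131 and 116 CPM in the IP and input labelled shRBM39, against 154 and 149 CPM in the shControl IP and input. IP over input was 1.13 times in the cells labelled shRBM39 (log2 0.17, 0.10 to 0.24) and 1.03 times in shControl cells (log2 0.05, -0.01 to 0.11). Whether these intervals included equality depended on scaling. The shControl interval included it with TMM but not with total counts (log2 0.13, 0.07 to 0.19). The interval of the cells labelled shRBM39 included it with total counts (log2 0.06, -0.01 to 0.13). ARG2, the mitochondrial form, stood at 28.8 and 27.1 CPM in the IP and input labelled shRBM39, against 38.7 and 28.9 CPM in the shControl IP and input. Its log2 ratio was 0.09 in the cells labelled shRBM39 (-0.05 to 0.24) and 0.42 in shControl cells (0.29 to 0.56). The first of these turned to -0.02 when libraries were scaled to total counts. ARG1 overlaps MED23 and ARG2 overlaps VTI1B and GPHN in the RefSeq annotation, and the strand setting of the counting is not given in the sources used here, so reads could be shared. MED23 had log2 ratios of -0.27 and 0.00 and VTI1B of -0.71 and -0.89 in the cells labelled shRBM39 and in shControl cells.

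The transcripts of CPS1, OTC and NAGS had few counts in every library. CPS1, carbamoyl phosphate synthetase, had 213 and 61 counts in the IP and input labelled shRBM39, against 120 and 51 counts in the shControl IP and input. It was 1.82 times its input level in the cells labelled shRBM39 (log2 0.87, 0.46 to 1.31) and 1.12 times in shControl cells (log2 0.16, -0.32 to 0.67). OTC, ornithine transcarbamylase, had 164 and 78 counts in the IP and input labelled shRBM39, against 106 and 18 counts in the shControl IP and input. Its ratio was 1.10 times in the cells labelled shRBM39 (log2 0.14, -0.25 to 0.55) and 2.75 times in shControl cells (log2 1.46, 0.76 to 2.30). The shControl ratio rested on the 18 input counts. The ratios of CPS1 and OTC thus ran in opposite orders between the cultures, but the intervals of CPS1 in the cultures overlapped. NAGS, which makes the activator of CPS1, had 154 and 41 counts in the IP and input labelled shRBM39, against 234 and 52 counts in the shControl IP and input. It had the largest ratio of the set in the cells labelled shRBM39, 1.96 times (log2 0.97, 0.48 to 1.51), and 2.13 times in shControl cells (log2 1.09, 0.66 to 1.56).

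AGMAT, annotated as agmatinase, an enzyme that splits the arginine product agmatine, stood at 50.7 and 29.1 CPM in the IP and input labelled shRBM39, against 54.5 and 33.2 CPM in the shControl IP and input. Each IP lay above both inputs. Its ratios were close in both cultures, at 1.74 times in the cells labelled shRBM39 (log2 0.80, 0.67 to 0.93) and 1.64 times in shControl cells (log2 0.71, 0.59 to 0.84). AGMAT overlaps DNAJC16, which was at log2 -0.50 in the cells labelled shRBM39 and -0.40 in shControl cells.

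**Figure D2:**
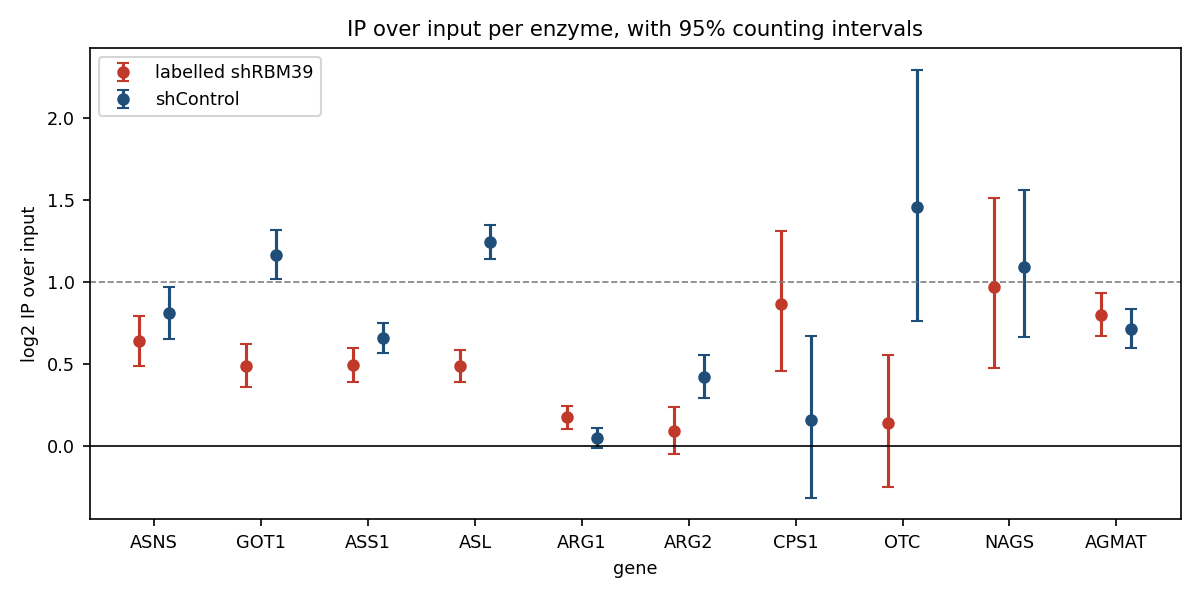
Log2 IP over input of each enzyme in the cells labelled shRBM39 (left point of each pair) and in shControl cells (right point), with 95% counting intervals, 1 library per group. The dashed line marks 2-fold; ASL, OTC, NAGS and GOT1 stand above it in shControl cells, and no gene does in the cells labelled shRBM39.

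**Figure D3:**
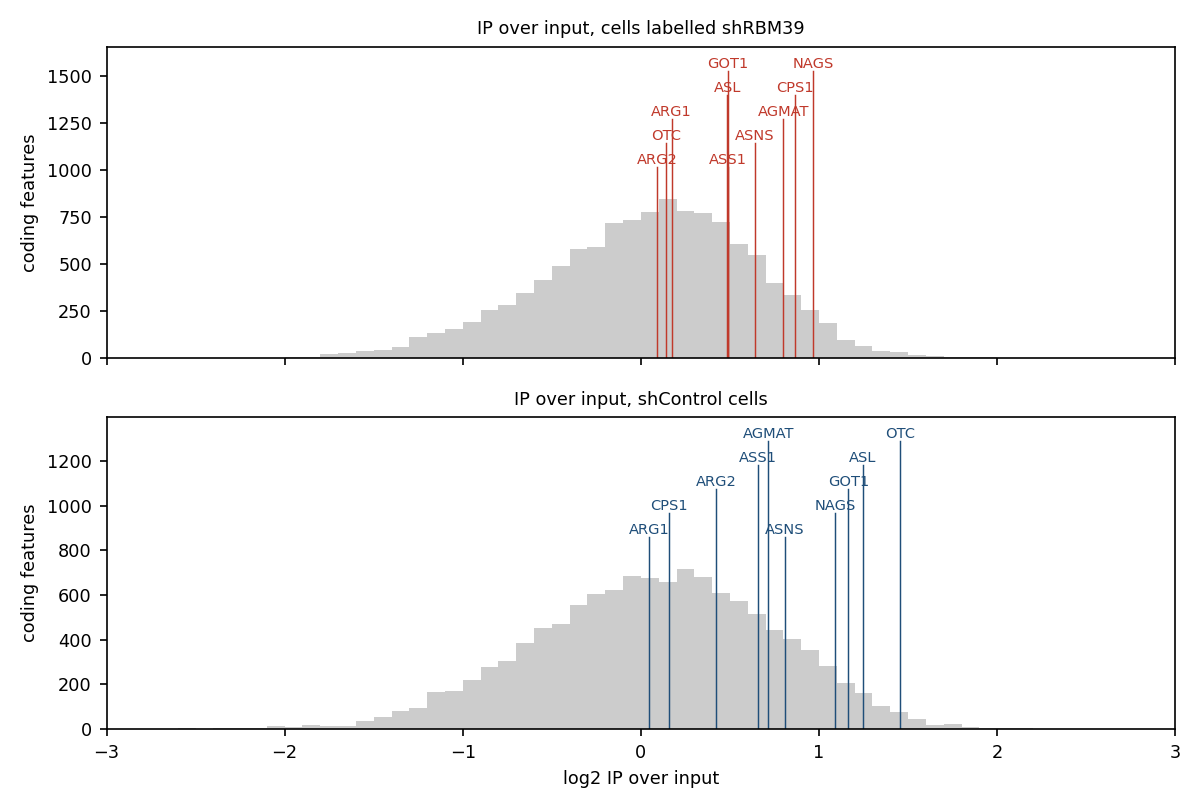
Grey bars count the 11822 protein-coding features with at least 200 summed counts by log2 IP over input (x axis, shown from -3 to 3), for the cells labelled shRBM39 above and shControl cells below. Coloured lines mark the 10 enzymes, which lie right of 0 in both panels and within the range of the other coding features.

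IP was tested against input over both cultures, with the culture as a term and 1 residual degree of freedom. In edgeR's quasi-likelihood test with Benjamini-Hochberg adjustment over 19210 features, 6 of the 10 transcripts rose in the IP and none fell, where 19.3% of all features were called higher and 17.6% lower. They were AGMAT (log2 0.76, adjusted p = 0.000456), ASL (0.86, adjusted p = 0.000609), GOT1 (0.82, adjusted p = 0.000662), ASNS (0.72, adjusted p = 0.000898), NAGS (1.04, adjusted p = 0.00429) and ASS1 (0.57, adjusted p = 0.00488), each higher in the IP in 2 of 2 cultures. The values of the other 4 were 0.54 for CPS1 (edgeR adjusted p = 0.135), 0.68 for OTC (edgeR adjusted p = 0.110), 0.26 for ARG2 (edgeR adjusted p = 0.194) and 0.11 for ARG1 (edgeR adjusted p = 0.622). DESeq2 with the same design also called 6 of the 10, but the share of all features that it called higher is not given here. Without the culture term, edgeR called none of the 10 (5 at an unadjusted p under 0.05). It then called none of the 19210 features either (4143 at an unadjusted p under 0.05). The cultures carried different hairpins and are not repeats of one condition. The 1 residual degree of freedom is the difference in recovery between them, so any change of recovery with the hairpin enters as error. The p-values therefore measure no spread between replicates.

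The change in input asks whether the steady RNA level of these enzymes differed in the cells labelled shRBM39. OTC was called higher, 1 of the 10, and none was called lower, where 5.10% of all features were called higher and 5.74% lower. OTC stood at 3.58 CPM in the input labelled shRBM39 and 0.834 CPM in the shControl input, 4.20 times (log2 2.07, 1.35 to 2.93), above 99.6% of the 11822 coding features. Counting rested on 78 and 18 reads, and the IPs had the same order, with 3.96 CPM in the one labelled shRBM39 and 2.34 CPM in the shControl one. The log2 input ratios of the 10 had a median of 0.03, beside -0.01 for all features.

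ASNS was not distinguishable between the inputs, with 21.3 CPM in the cells labelled shRBM39 and 19.1 CPM in shControl cells (log2 0.15, -0.04 to 0.35), and 0.06 with the pseudogene counts added (-0.13 to 0.25). GOT1 (log2 0.49, 0.32 to 0.67) and ASL (0.34, 0.21 to 0.46) were higher in the input labelled shRBM39 by less than 2-fold. ARG1 (-0.37, -0.44 to -0.29), ASS1 (-0.35, -0.47 to -0.23) and AGMAT (-0.19, -0.35 to -0.03) were lower there by less than 2-fold. The enzymes either side of argininosuccinate thus differed in sign: ASS1, which makes it, stood at 45.7 CPM in the input labelled shRBM39 and 58.4 CPM in the shControl input, and ASL, which splits it, at 54.6 and 43.2 CPM. The intervals of NAGS (-0.35, -0.98 to 0.26), CPS1 (0.24, -0.32 to 0.81) and ARG2 (-0.10, -0.26 to 0.07) included equality. NAGS and CPS1 had only 41 to 61 input counts, and smaller differences were not detectable at this depth.

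**Figure D4:**
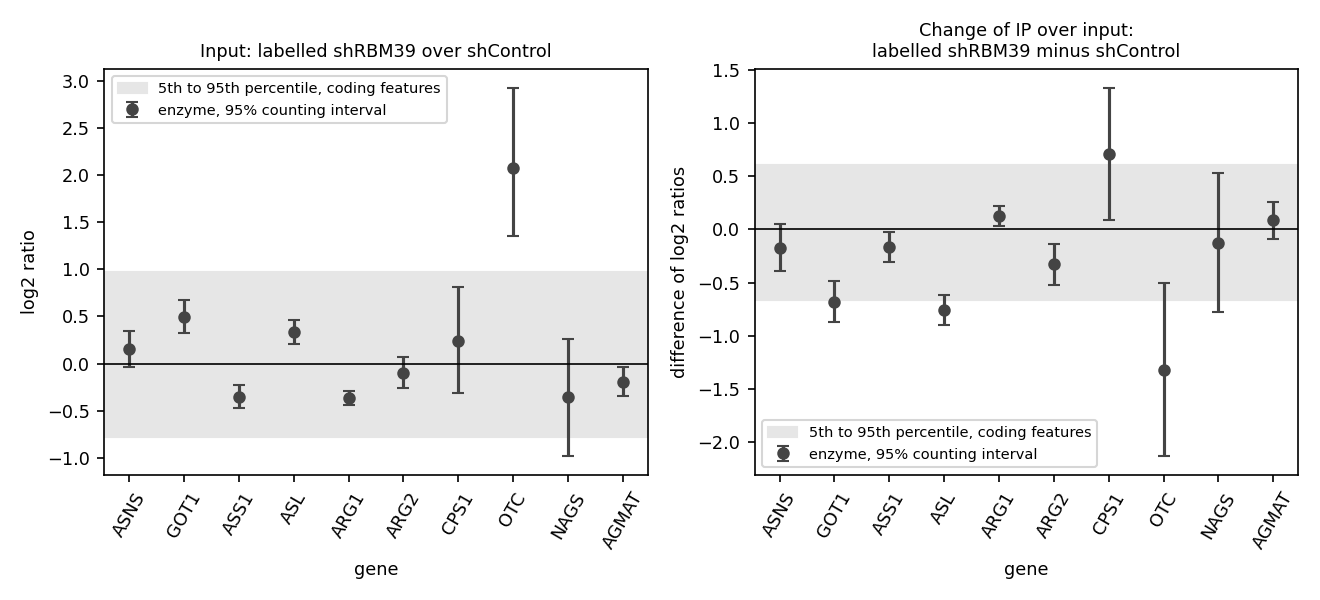
Left, log2 ratio of the input labelled shRBM39 over the shControl input for each enzyme; right, the difference of log2 IP over input, shRBM39 minus shControl. Points carry 95% counting intervals and the grey band spans the 5th to the 95th percentile of 11822 coding features; OTC (2.07) stands above the band on the left, and OTC (-1.32), ASL (-0.76) and GOT1 (-0.68) stand below it and CPS1 (0.71) above it on the right.

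Recovery was then set between the cultures as the difference of the log2 ratios, shRBM39 minus shControl. OTC was called lower, 1 of the 10 (-1.32, -2.13 to -0.51), and none was called higher, where 2.74% of all features were called lower and 4.39% higher. The interval was also below 0 for ASL (-0.76, -0.90 to -0.62), GOT1 (-0.68, -0.87 to -0.48), ARG2 (-0.33, -0.52 to -0.13) and ASS1 (-0.16, -0.30 to -0.03). Among the 11822 coding features OTC stood at percentile 0.330, ASL at 3.26 and GOT1 at 4.68. CPS1 was on the other side (0.71, 0.09 to 1.33), at percentile 96.7. ASNS was at -0.17 (-0.39 to 0.05), NAGS at -0.12 (-0.78 to 0.53), ARG1 at 0.13 (0.03 to 0.22) and AGMAT at 0.09 (-0.09 to 0.26).

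A lower ratio can come from a higher input or a lower IP. For OTC the IP was higher in the cells labelled shRBM39 and the whole of the difference lay in the input. For GOT1 the larger part lay in the input (29.7 CPM in the cells labelled shRBM39, 21.0 CPM in shControl cells), while its IPs stood at 41.6 and 47.2 CPM. ASL moved in both, and for ARG2 the inputs were alike (27.1 and 28.9 CPM) and the IPs were not (28.8 and 38.7 CPM). The comparison depends on scaling. With total counts the median difference of all features moved to -0.20, ASNS to -0.36 (-0.58 to -0.14), ARG1 to -0.07 and AGMAT to -0.11. CPS1 moved to 0.52 (-0.11 to 1.14), so its interval then included 0. With that scaling 570 features were called higher and 887 lower in place of 843 and 526.

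By distance over both recovery ratios and the input ratio, the 5 features most like ASNS among 11945 with at least 200 summed counts were PSMB7, a proteasome subunit (distance 0.043), SPIRE2 (0.045), PDCD7 (0.049), LAP3, a leucine aminopeptidase (0.055), and GPANK1 (0.056). AGMAT was the nearest of the other 9 enzymes, at a distance of 0.39, with 7.17% of those features nearer to ASNS. OTC was the farthest, at 2.09, with 86.0% nearer. None of the 5 nearest features was one of the other 9 enzymes. With only 9 such enzymes among 11945 features, this says little about the pathway, and the distances rest on 4 libraries.

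Genes around these enzymes were described by lists drawn from the pathways. The 13 compared enzymes of aspartate, glutamate and glutamine had a median log2 IP over input of 0.45 in the cells labelled shRBM39 with none called, and 0.68 in shControl cells with 4 higher, among them GOT2 and GLUD1, the glutamate dehydrogenase (1.08). Their input ratio had a median of 0.37 with none called. In the edgeR test 5 of the 13 rose and none fell. Of 5 genes of pyrimidine synthesis, which uses carbamoyl phosphate and aspartate in the cytosol, none was called in either IP (medians of 0.21 in the cells labelled shRBM39 and 0.79 in shControl cells), and 3 rose in the edgeR test. CAD, their first enzyme, was 1.71 times its input level in the cells labelled shRBM39 and 1.99 times in shControl cells, and its log2 input ratio was 0.65. In input, CTPS1 was the 1 called higher.

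Among 7 mitochondrial carriers the recovery medians were 0.24 in the cells labelled shRBM39 and 0.53 in shControl cells, with 1 called higher in each, and 1 rose in the edgeR test. Their input median was -0.73. SLC25A15, which carries ornithine into mitochondria for OTC, had 322 counts in the input labelled shRBM39 and 646 counts in the shControl input (log2 -1.02), and was called lower there. SLC25A12, an aspartate and glutamate carrier, was called lower too (-1.26) on 14 and 34 counts, and SLC25A29, a carrier of basic amino acids, higher (1.41) on 33 and 12 counts. OTC and the carrier of its substrate thus stood on opposite sides in input.

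The 21 compared genes of the ornithine, proline, polyamine, creatine and nitric oxide branches had recovery medians of 0.31 in the cells labelled shRBM39, with AMD1 as the 1 called lower (0.499 times), and 0.51 in shControl cells, with 4 called higher and 1 lower. PYCR1 and ALDH4A1, enzymes of proline synthesis and breakdown, were higher in the shControl IP (1.22 and 1.35), and AMD1, of polyamine synthesis, was lower (-1.37). By the edgeR test 9 rose and 2 fell, and the input median was 0.04 with 1 called higher.

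The 16 carriers of arginine, asparagine and glutamine in outer and lysosomal membranes had recovery medians below 0. They were -0.26 in the cells labelled shRBM39, with 1 higher and 3 lower, and -0.40 in shControl cells, with none higher and 1 lower. In the edgeR test 5 fell and none rose, a count that holds SLC38A2, a glutamine and asparagine carrier (log2 -1.08 in the cells labelled shRBM39 and -1.07 in shControl cells). SLC7A1, the main arginine carrier of many cells, was at 0.00 in the cells labelled shRBM39 and 0.16 in shControl cells. Input had 1 called higher and 3 lower, with a median of -0.27.

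Genes of arginine sensing to the growth kinase mTORC1 had recovery medians of 0.55 in the cells labelled shRBM39, with 2 of 17 higher, and 0.54 in shControl cells, with 4 higher and 1 lower. WDR24, of the GATOR2 complex, was higher in both (1.25 in the cells labelled shRBM39 and 1.18 in shControl cells). Of the 17, 9 rose and 2 fell in the edgeR test, and no input ratio was called (median -0.06). The arginine sensor CASTOR1, under its older symbol GATSL3, had 12 and 0 counts in the IP and input labelled shRBM39. Its counts were 24 and 2 in the shControl IP and input. It is among the genes called higher above (3.72 in the cells labelled shRBM39 and 2.22 in shControl cells). Those calls rest on too few counts to rely on.

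The amino acid response, the stress pathway from GCN2 to ATF4 that controls ASNS, had a recovery median over 28 genes of 0.18 in the cells labelled shRBM39, with 2 called lower, and 0.33 in shControl cells, with 6 higher and 2 lower. In the edgeR test 11 rose and 4 fell. ATF4 itself was at -0.31 in the cells labelled shRBM39 and -0.34 in shControl cells, and its input ratio was -0.25. The input median was -0.21, with 2 called higher, PHGDH (1.03) and the asparaginyl-tRNA synthetase NARS (1.08), and 2 called lower, STC2 (-1.19) and ALDH1L2 (-1.04). PHGDH, which opens serine synthesis, stood at 0.68 in the cells labelled shRBM39 and 1.49 in shControl cells for IP over input, a difference of -0.81.

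The 14 transcription factors of hepatocytes, several of which control urea cycle genes, had recovery medians of 0.45 in the cells labelled shRBM39 with none called, and 0.23 in shControl cells with 1 called higher and 1 lower, PPARA. Of the 14, 7 rose and 2 fell in the edgeR test, and no input ratio was called (median 0.15). The 10 hepatocyte markers, mostly secreted proteins, had recovery medians of -1.11 in the cells labelled shRBM39 with 5 lower, and -0.29 in shControl cells with 1 lower, and 6 fell and 1 rose in the edgeR test. No input ratio of these markers was called (median -0.10). The 7 compared markers of other cell types had recovery medians of 0.03 with 1 lower in the cells labelled shRBM39 and -0.14 with 1 higher in shControl cells, no input call (median 0.15), and 3 that fell in the edgeR test.

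**Figure D5:**
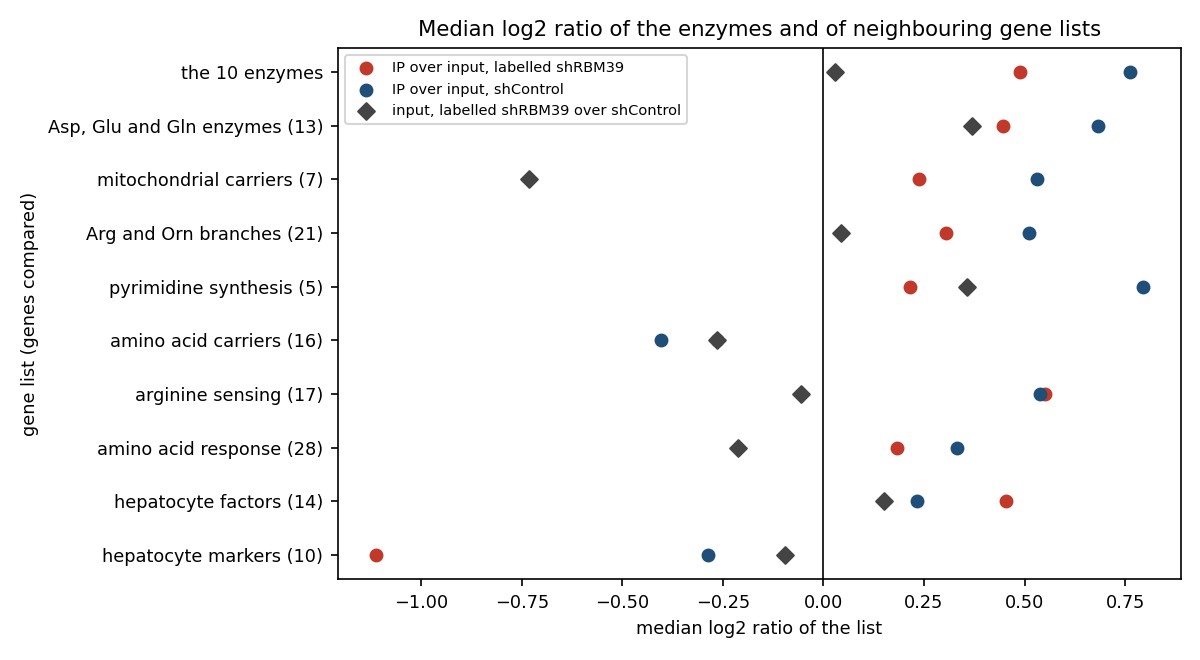
Median log2 ratio of the 10 enzymes and of the gene lists around them (compared genes in brackets), for IP over input in the cells labelled shRBM39 and in shControl cells and for the input labelled shRBM39 over the shControl input. The enzymes' recovery medians (0.49 and 0.76) are positive. So are those of every other list shown except the amino acid carriers (-0.26 and -0.40) and hepatocyte markers (-1.11 and -0.29), which are negative. The shRBM39 point of the amino acid carriers lies under their input diamond (-0.27).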

How the data were processed

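Raw counts per gene symbol were used as deposited, with no scaling by the authors. The submitters' processing notes name HISAT2 2.0.4, StringTie 1.3.4d, cutadapt 1.9 and hg38. Their roles, the program that counted reads, its use of strand and its gene models are not given here. The 4 columns were matched to samples by name, and the table has 0 other columns. Of counts from 3 to 6, 71.4% to 75.6% were even, as when both mates of a pair are counted; intervals are then too narrow, and halved counts were an alternative. Date-like names stand in for 13 symbols (0.0205% to 0.0335% of counts).

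Scaling was by TMM (edgeR 4.0.16 under R 4.3.3). Log2 ratios used counts plus 0.5, with exact conditional (Clopper-Pearson) 95% intervals. edgeR's quasi-likelihood test and DESeq2 1.42.0 were fitted to 19210 features, and the edgeR and ratio steps were tested on simulated data. Alternatives changed the scaling, the filter, the pseudocount, the fold and the culture term. Names, coordinates and sequences come from RefSeq on GRCh38.p14, which matched 10 of the 10 enzymes. The enzymes and the 10 lists were chosen with earlier results of these data known. Named by rule were the enzymes, RBM39, the 5 features nearest to ASNS and, per list and comparison, up to 4 genes with the largest ratios among those with 200 or more summed counts. Genes that overlap or copy an enzyme, GATSL3, ATF4 and some values of GOT2, AMD1 and SLC7A1 were added after their values were seen. Some results of single genes are not reported here.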

Additional observations from a re-analysis of the deposited data

How the results depend on the processing

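For the ratios, 7 other settings of scaling, filter, pseudocount and halved counts were compared. The enzymes' median recovery ranged from 0.38 to 0.61 in the cells labelled shRBM39 and from 0.76 to 0.85 in shControl cells, their median difference from -0.36 to -0.14, and their median input ratio from -0.05 to 0.04. The median input ratio was -0.051 with total counts, the opposite sign to the 0.03 of the report. Without a filter, NAGS was called higher in the cells labelled shRBM39 (1.09), 1 enzyme in place of 0. At 1.5-fold, 4 were called higher in the cells labelled shRBM39 and 7 in shControl cells, and 1 higher and 3 lower in the difference. Far more features were called at that fold as well, and their counts close the next paragraph. The calls of ASL, OTC, NAGS and GOT1 in shControl cells and of OTC in input and in the difference held under the 7. With counts divided by 2, the intervals of AGMAT in input and of ASS1, ARG1 and CPS1 in the difference included 0. Adding the counts of pseudogenes to ASNS, ASS1 and ASL, an alternative chosen after seeing the data, changed no call of theirs.

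In the edgeR test the 6 enzymes kept an adjusted p of 1.27e-07 to 0.0407 under 4 alternatives, DESeq2 included; CPS1 and OTC also passed without a filter (edgeR adjusted p = 0.0472 and 0.0223). Without the culture term 0 enzymes passed, and 0 features in place of 3698 higher and 3381 lower; the cause was not tested. DESeq2 called 2097 features lower. Over all features, calls in the cells labelled shRBM39 became 1624 higher without a filter and 644 with 10 counts in all libraries (1016 in the report). Lower calls in input became 636 with that filter and 679 with halved counts (1102). Calls in the difference became 460 higher with that filter, 450 higher and 237 lower with halved counts, and 887 lower with total counts (843 and 526). At 1.5-fold, higher and lower calls were 2977 and 3350 in the cells labelled shRBM39, 3630 and 3953 in shControl cells (1479 and 2173), 2440 and 2295 in input (979 higher) and 1527 and 1312 in the difference.

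The culture term of the edgeR test pairs each IP with the input of its culture, and the fit without it is the unpaired one. Replicate numbers were not used to pair libraries, since each group had 1 library. No library was left out, since a group would then be empty. Depth limits OTC, CPS1 and NAGS most, with 18 to 78 input counts.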
